A study of Mus musculus with 7 samples.

Results

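The 33 genes described here make cholesterol, sense it, move it out of the cell, or make and store fatty acids and their esters. They were chosen by gene symbol, and each was read by 1 of the 25428 probe sets on Mouse Gene 2.0 ST arrays. Of the 33, 31 were named by the annotation table of the platform, and Nr1h2 and Soat1 were named through the RefSeq gene table by their Entrez number. The RNA came from conventional type 1 dendritic cells (cDC1) of the lungs of C57/BL6 mice. In the 4 nLung arrays the mice were healthy controls that the study describes as injected with saline, and in the 3 KP(l) arrays they carried late lung tumors. KP is a transplanted line of lung adenocarcinoma, of which 100000 cells were given into the tail vein, and the lungs were taken on day 28. Each array held RNA from a pool of lungs of 2 to 3 mice, and the age of the mice was not given in the sources used here. The cells were enriched for CD11c on beads and then sorted by staining for MHC class II, CD11c, CD11b, CD103 and SiglecF. The cDC1 gates that the study describes for its flow cytometry take SiglecF-negative and CD11b-negative cells, a gate that leaves out alveolar macrophages, which carry SiglecF.

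Cells build cholesterol from acetyl units through mevalonate, the isoprenoids, squalene and lanosterol. When sterols in the endoplasmic reticulum are low, SCAP carries the SREBP factors to the Golgi, where they are cut and then turn on the genes of the pathway, whereas INSIG1 holds SCAP back when sterols are plentiful. The SREBP factors act on promoters together with NF-Y, which binds the CCAAT box. The liver X receptors (LXR) sense oxidised sterols and turn on genes of cholesterol efflux. Dendritic cells in tumors can hold more lipid than those of healthy tissue, and the comparison asks whether the genes that make and handle lipid differed between cDC1 of KP(l) and nLung lungs.

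Promoters of members were taken from RefSeq on build GRCm38.p6, as the 250 bases before the start of transcription. Windows were at hand for 26 of the 33 members, the others being Fdps, Fdft1, Sqle, Stard4, Abcg1, Scd1 and Scd2. The motifs searched, on both strands, were the NF-Y box CCAAT, a sterol regulatory element TCACCCCAC, and an LXR element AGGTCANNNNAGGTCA, and no match of one lay on a match of another in the members. They were kept after other spellings had been looked at. Counts for those spellings are not given, so the effect of this choice cannot be judged here. The windows below begin with a promoter that has both the NF-Y box and the sterol element (Hmgcs1). Next is the one with the most boxes among those shown (Mvk). The synthesis gene whose groups did not overlap (Lss) and a late enzyme on the other strand (Hsd17b7) follow. The last is Abca1, an LXR target with no exact match to these spellings. A site spelled otherwise would not be marked. Capitals mark the motif letters, and ATTGG is the box read on the opposite strand. They lie at chr13:119690101-119690350 (plus strand), chr5:114444019-114444268 (plus), chr10:76531355-76531604 (plus), chr1:169969206-169969455 (minus) and chr4:53159896-53160145 (minus), in the order printed.
Hmgcs1: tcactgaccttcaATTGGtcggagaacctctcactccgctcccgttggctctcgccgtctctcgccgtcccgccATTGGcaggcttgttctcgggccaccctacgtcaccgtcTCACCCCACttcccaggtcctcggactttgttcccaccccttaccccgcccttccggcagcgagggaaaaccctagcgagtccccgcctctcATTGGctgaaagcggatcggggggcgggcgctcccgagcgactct
Mvk: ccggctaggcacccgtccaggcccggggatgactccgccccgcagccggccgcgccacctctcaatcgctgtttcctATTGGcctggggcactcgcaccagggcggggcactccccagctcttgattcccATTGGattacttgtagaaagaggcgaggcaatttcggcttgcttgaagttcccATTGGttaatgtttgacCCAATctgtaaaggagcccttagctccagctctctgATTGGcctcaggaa
Lss: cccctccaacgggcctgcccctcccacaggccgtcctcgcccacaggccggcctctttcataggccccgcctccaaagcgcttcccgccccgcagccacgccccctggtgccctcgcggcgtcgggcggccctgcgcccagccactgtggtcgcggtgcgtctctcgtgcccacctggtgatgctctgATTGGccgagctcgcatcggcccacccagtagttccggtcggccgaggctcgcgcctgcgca
Hsd17b7: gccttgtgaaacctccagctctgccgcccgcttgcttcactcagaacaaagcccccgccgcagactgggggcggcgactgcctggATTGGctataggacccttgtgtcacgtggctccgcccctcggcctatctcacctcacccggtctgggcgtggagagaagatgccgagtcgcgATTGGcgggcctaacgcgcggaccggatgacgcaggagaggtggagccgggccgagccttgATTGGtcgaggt
Abca1: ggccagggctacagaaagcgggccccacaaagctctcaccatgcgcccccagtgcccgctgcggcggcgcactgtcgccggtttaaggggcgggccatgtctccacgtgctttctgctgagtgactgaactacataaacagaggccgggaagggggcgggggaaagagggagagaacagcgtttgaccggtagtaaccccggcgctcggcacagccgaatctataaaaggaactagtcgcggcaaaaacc

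The NF-Y box was common among the synthesis enzymes. All 13 of the enzymes with a window held at least 1 box (100%), and 9 of them held 2 or more. Of the 13 other members, 8 held at least 1 (61.5%) and 3 held 2 or more. Across all genes with a window, 10133 of 27025 held one (37.5%), and across protein-coding genes 6906 of 17492 did (39.5%). Counted by window, since some genes have several starts, the share was 81.2% of 16 windows of the enzymes and 33.8% of all 32851 windows. In Hmgcs1 the boxes began 237, 176 and 45 bases before the start, and in Lss the single box began at 62. The sterol element was present in 1 of the 26 members, Hmgcs1, at 137 bases before the start, and in 0.555% of all genes. The LXR element was found in 0 of the 26 members, in 4 of the 27025 genes and in 0 of the 17492 protein-coding genes. This exact spelling is too rare for its absence from the members to say whether they hold LXR sites. No box lay in the windows of Scap, Nr1h2, Nr1h3, Abca1 and Apoe. A match is a spelling in a sequence, and no match says only that these letters are not in this window. The median log2 fold change between the groups, defined below, was -0.16 for the 21 members with a box and 0.10 for the 5 without. This difference was not tested. All enzymes with a window held a box and most members without one were LXR and efflux genes, so box and role cannot be told apart.

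**Figure D1:**
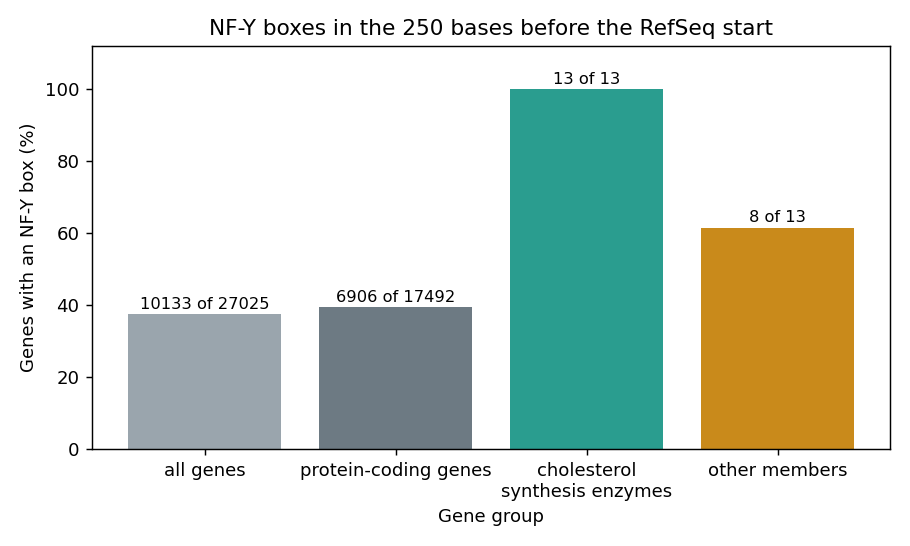
Share of genes, in percent, whose 250 bases before the start hold the letters CCAAT on either strand, for the synthesis enzymes, the other members, protein-coding genes and all genes with a RefSeq window. The share is 100% for the 13 enzymes, 61.5% for the 13 other members and 37.5% for all genes.

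The arrays did not stand far apart as a whole. The median log2 value of an array was 3.49 to 3.57, and Pearson's r across probe sets was 0.942 to 0.978 between arrays. The arrays were divided by replicate number into 2 sets that cross the groups. The first set held replicates 1 and 2 of both groups, and the second set held nLung replicates 3 and 4 and KP(l) replicate 3. Upper quartiles of the arrays were 5.11 to 5.17 in the first set and 5.22 to 5.28 in the second, without a wide gap between them. Differences are also given within each set. The 8 markers of cDC1, such as Xcr1, Clec9a and Batf3, had a summed linear expression of 8108 to 9605 in nLung and 7703 to 10000.1 in KP(l). Markers of alveolar macrophages, 8 of the 9 listed, summed to 1303 in nLung replicate 1 and 200 to 444 in the other nLung arrays. They summed to 1423 and 1418 in KP(l) replicates 1 and 2 and to 389 in KP(l) replicate 3. Chil3 and Ear2 made up most of the high sums. Chil3, Marco, Car4 and Mrc1 were highest in nLung replicate 1 and KP(l) replicates 1 and 2. Siglecf, Krt79 and Fabp1 did not all follow. Siglecf had log2 values of 3.92, 6.74 and 3.99 in those arrays and 4.40 to 4.74 in the others. Ear2 was highest in KP(l) replicates 1 and 2, while nLung replicate 1 and KP(l) replicate 3 shared a value of 8.30. In KP(l) replicate 1 the neutrophil markers also stood at 1523, against 29.3 to 46.3 in nLung. Lung epithelium markers were at 341 to 2453 in nLung and 175 to 369 in KP(l).

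The groups were compared probe set by probe set with limma over the whole table, with Benjamini-Hochberg adjustment over all 25428, and calls needed a fold change of 2 or more with adjusted p no higher than 0.05. No filter on low values was used, so all 33 members were tested. None of them was called, and neither was any probe set on the array (0 of 25428, 0%). The study, which used SAM, did report differentially expressed transcripts between these groups. At an unadjusted p under 0.05 there was 1 member, Apoe, which is 3.03% of the list against 4.86% of all probe sets, with 2.62% higher and 2.24% lower in KP(l). Without nLung replicate 2 or without KP(l) replicate 1 there was none, and without nLung replicate 1 or without KP(l) replicate 3 there were 3. A fold change of 2 or more was also reached by 1 member, Apoe, against 1.84% of all probe sets. The 2 groups did not overlap in 2 members, Abca1 and Lss, or 6.06% against 3.84% of all probe sets. Log2 fold changes of KP(l) over nLung ran from -0.68 to 1.67 with a median of -0.05, 15 above and 18 below 0, while the median of all probe sets was 0.02. Adjusted p from limma was 0.912 to 0.999 for the members.

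The precision differed between members. The 95% interval of limma lay inside a fold change of 2 in either direction for 20 of the 33, so that for these a change of that size was outside the interval, and for the remaining 13 it was not. The half-width of the interval had a median of 0.69 on the log2 scale, against 0.41 over all probe sets, and reached 1.52 for Scd1. Healthy arrays varied widely in this list, with a median range of 0.87 between the lowest and highest nLung array. In 23 members the SD of the nLung arrays was larger than the difference between the groups, and in 14 the sign of the difference turned when 1 array was left out.

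**Figure D2:**
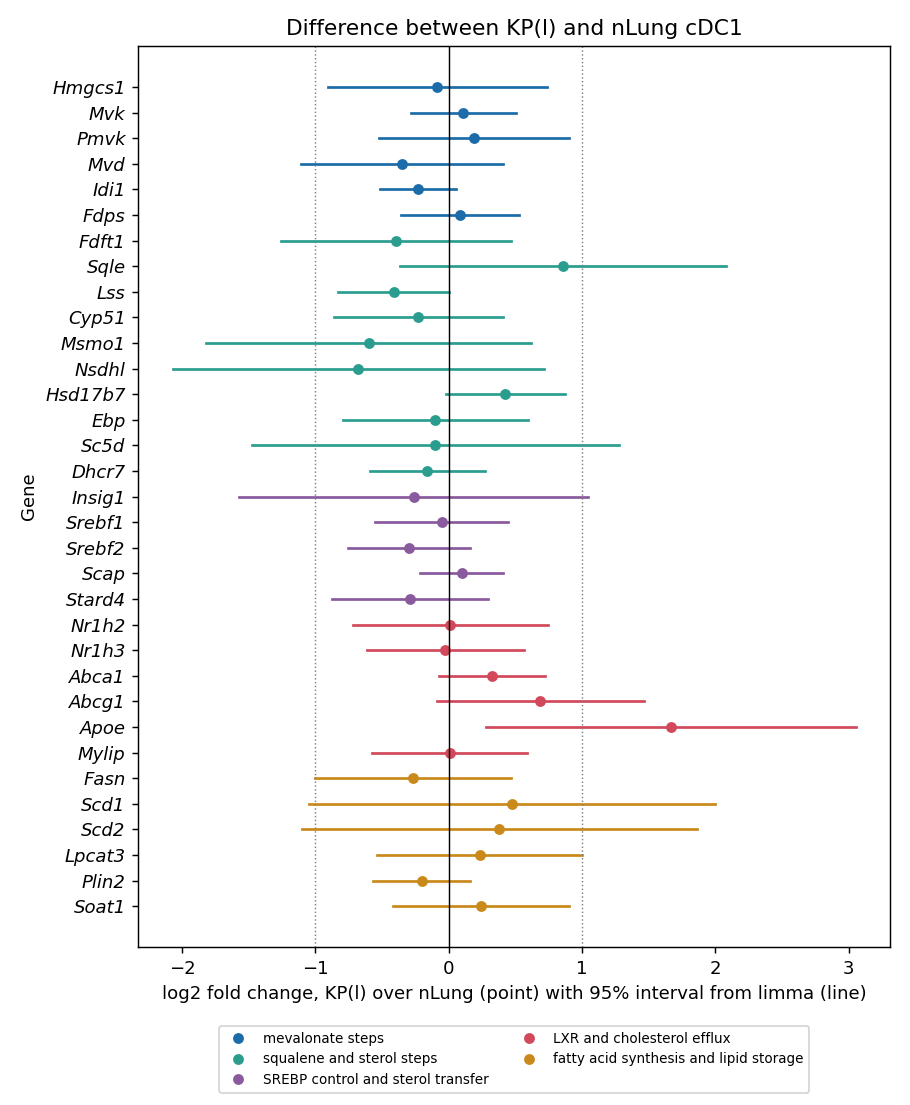
Log2 fold change of KP(l) (3 arrays) over nLung (4 arrays) for each of the 33 members, as points, with the 95% interval from limma as lines and dotted lines at a fold change of 2. Apoe, at 1.67, is the member whose interval lies clear of 0, and 20 intervals stay between the dotted lines.

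The first steps of the pathway lead from acetyl units to the isoprenoids. Hmgcs1, the synthase that makes HMG-CoA, had log2 values of 6.87, 7.79, 6.21 and 6.91 in nLung replicates 1 to 4 and of 6.71, 6.91 and 6.96 in KP(l) replicates 1 to 3. All KP(l) values fell inside the spread of nLung. The log2 fold change was -0.09 (standard error 0.34, 95% interval -0.91 to 0.74, adjusted p = 0.980 from limma), with -0.52 in the first set and 0.40 in the second set. The sign turned, to 0.20, without nLung replicate 2, the highest array. Of the other 5 early enzymes, the mevalonate kinase Mvk and the phosphomevalonate kinase Pmvk had log2 fold changes of 0.11 and 0.19. The decarboxylase Mvd stood at -0.35, the isomerase Idi1 at -0.23 and the farnesyl diphosphate synthase Fdps at 0.08. For Idi1 the nLung arrays lay between 4.002 and 4.25 and the KP(l) arrays between 3.68 and 4.05, so that 1 KP(l) array overlapped. The 6 early enzymes had a median of -0.00, with 3 above and 3 below 0.

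The later steps close squalene into lanosterol and trim it to cholesterol. Lss, the lanosterol synthase that closes the ring, had log2 values of 3.61, 4.21, 4.03 and 3.61 in nLung and of 3.49, 3.34 and 3.53 in KP(l). The KP(l) arrays were the lowest 3 of the 7, and each lay below 3.54, the median of all probe sets. Values of nLung replicates 1 and 4 were shared, at 3.61, close to the highest KP(l) array. Its log2 fold change was -0.41 (standard error 0.17, 95% interval -0.83 to 0.0045, adjusted p = 0.912 from limma), with -0.49 in the first set and -0.29 in the second set. An exact two-sided permutation test over the 35 arrangements of the labels gave p = 0.0857 for Lss. With 4 against 3 arrays such a test cannot give less than 0.0286.

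Sqle, the squalene epoxidase and a slow step of the pathway, is described because its values were seen to rest on 1 array. Its log2 values were 4.73, 5.05, 5.60 and 5.66 in nLung and 7.36, 5.39 and 5.60 in KP(l). KP(l) replicate 1 lay above all other arrays, and the other KP(l) arrays lay within nLung. This gave a log2 fold change of 0.86 (standard error 0.51), with 1.48 in the first set, -0.03 in the second set and 0.24 without KP(l) replicate 1. That array was also the one with high neutrophil markers and among those with high alveolar macrophage markers, and their part in the result was not tested.

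Of the other 8 late enzymes, the squalene synthase Fdft1 had a log2 fold change of -0.39, the lanosterol demethylase Cyp51 of -0.23 and the methylsterol oxidase Msmo1 of -0.60. The sterol dehydrogenase Nsdhl stood at -0.68, with nLung arrays spread from 4.94 to 7.35, a range wider than any difference between the groups in this list. Hsd17b7, a reductase of sterol ketones, differed the other way at 0.43, and its nLung arrays at 2.24 to 2.82 met the KP(l) arrays of 2.82 to 3.30 at a shared value. The mean of Hsd17b7 lay below 3.54, the median of all probe sets. The isomerase Ebp, the desaturase Sc5d and the reductase Dhcr7, which takes the last step, stood at -0.10, -0.10 and -0.16. The 10 late enzymes had a median of -0.19, with 2 above and 8 below 0. Of all 16 synthesis enzymes 0 reached an unadjusted p under 0.05, and their median was -0.13, or -0.00 in the first set and -0.17 in the second set. No array led throughout, since the highest value of an enzyme fell in nLung replicates 1 to 4 for 3, 3, 2 and 3 enzymes and in KP(l) replicates 1 to 3 for 2, 3 and 0.

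**Figure D3:**
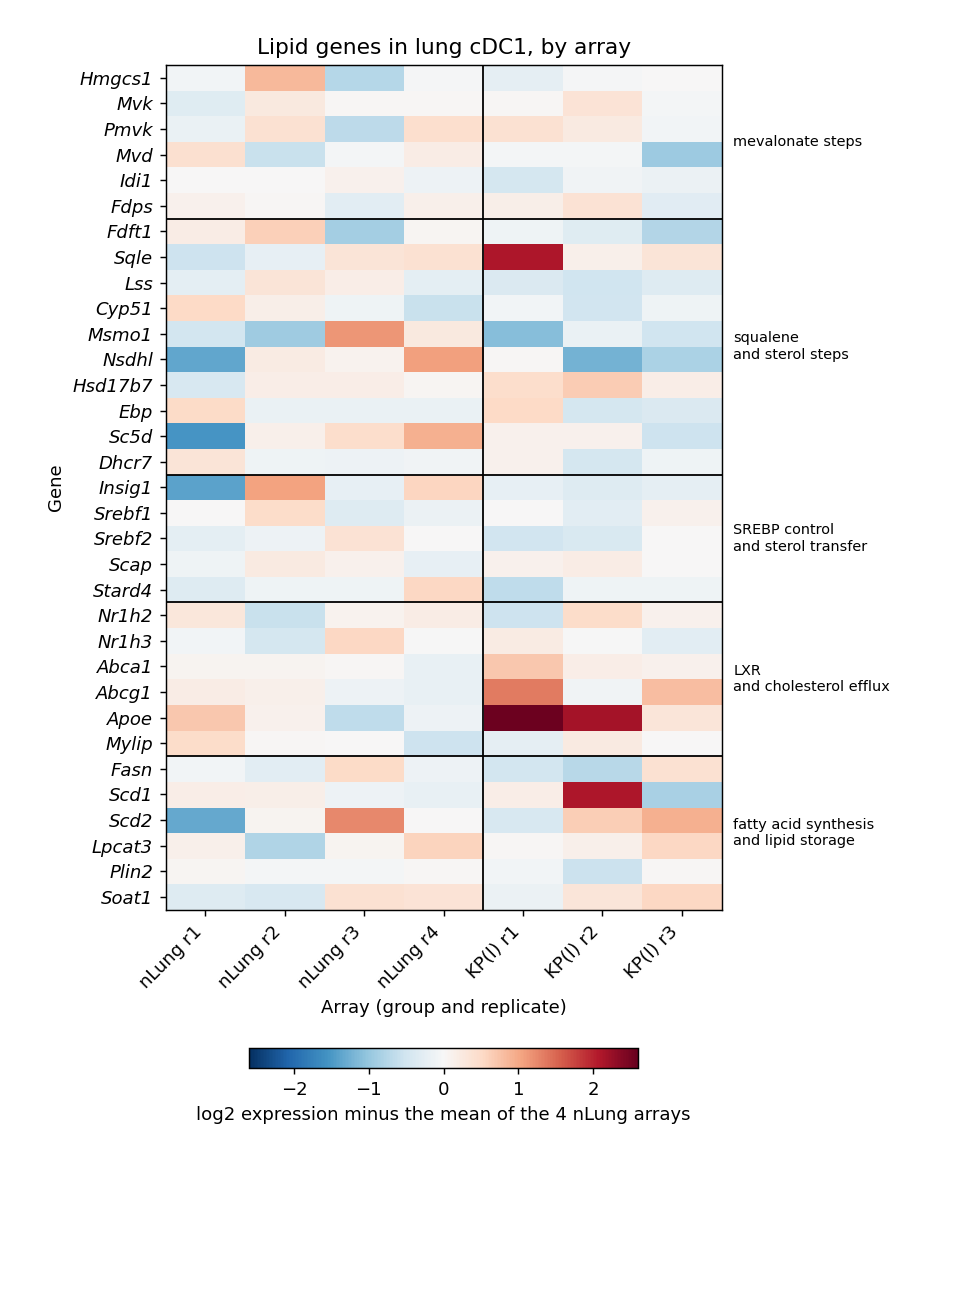
Difference of each array from the mean of the 4 nLung arrays, on the log2 scale, for the 33 members in the order of their roles, with nLung replicates 1 to 4 on the left and KP(l) replicates 1 to 3 on the right. The rows of Apoe, Sqle and Scd1 hold their strongest color in KP(l) replicates 1 or 2, while Insig1, Nsdhl, Sc5d and Scd2 vary most among the nLung arrays.

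In each of the 5 genes that control the pathway the groups overlapped. Insig1, the anchor that keeps SCAP in the endoplasmic reticulum and itself an SREBP target, had log2 values of 5.42, 7.84, 6.58 and 7.37 in nLung and of 6.58, 6.46 and 6.57 in KP(l). The KP(l) arrays were close together, with an SD of 0.07, in the middle of an nLung range of 2.42. The difference in means was -0.26 on the log2 scale (standard error 0.55, 95% interval -1.57 to 1.05, adjusted p = 0.956 from limma), with -0.11 in the first set and -0.40 in the second set. It was 0.084 without nLung replicate 2 and -0.72 without nLung replicate 1. Srebf2, which encodes the SREBP that drives cholesterol synthesis, stood at -0.30, and its KP(l) arrays of 8.59 to 9.10 overlapped the nLung arrays of 8.85 to 9.46. Srebf1, which encodes the SREBP of fatty acid synthesis, stood at -0.05, Scap at 0.10 and the sterol carrier Stard4 at -0.29. The 5 genes had a median of -0.26, with 1 above and 4 below 0.

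The largest difference of the list lay in Apoe, an LXR target gene. The other genes of this role differed less, with log2 fold changes from -0.02 to 0.69. Apoe, the lipoprotein that takes up cholesterol leaving the cell, had log2 values of 6.30, 5.72, 4.95 and 5.47 in nLung and of 8.15, 7.77 and 5.92 in KP(l). KP(l) replicates 1 and 2 lay above all nLung arrays, and KP(l) replicate 3 lay below nLung replicate 1. The means were 5.61 ± 0.56 (SD, n = 4 arrays) and 7.28 ± 1.19 (SD, n = 3 arrays), a log2 fold change of 1.67 (standard error 0.58, 95% interval 0.28 to 3.06, adjusted p = 0.912 from limma). The difference was 1.95 in the first set and 0.71 in the second set, and it ran from 1.23 to 2.35 when each array was left out. Macrophages express Apoe strongly, and macrophage genes moved with it. C1qb, a complement gene of macrophages, was at 5.10, 4.30, 4.25 and 4.68 in nLung and at 8.11, 6.995 and 4.51 in KP(l). The same 2 KP(l) arrays were high in Apoe, in C1qb and in the summed alveolar macrophage markers. Of these 8 markers 6 had a log2 fold change above 0. At an unadjusted p under 0.05 from limma there was 1, Ear2, or 12.5% against 4.86% of all probe sets. The 10 markers of monocytes and interstitial macrophages summed to 2168 to 2533 in nLung and 2100 to 2408 in KP(l), most of it from Ccr2, and 8 of them had a log2 fold change above 0. Without Ccr2, left out after its values were seen, the other 9 summed to 172 to 209 in nLung, to 819 and 413 in KP(l) replicates 1 and 2 and to 150 in KP(l) replicate 3, so that the same arrays were high. No marker is at 0 on this scale, which has no background taken off. nLung replicate 1, at 1303 in the alveolar macrophage sum and 209 in the latter sum, had the highest Apoe of the nLung arrays. With nLung replicate 1 and KP(l) replicates 1 and 2 left out, a choice made after seeing the data, Apoe stood at 0.54 in 1 KP(l) array against 3. These were also the 3 arrays highest in Apoe itself, so the choice alone took away its highest values. The part of macrophages in the result was not tested. In sorted bulk RNA fewer cells of a type and less RNA per cell cannot be told apart.

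**Figure D4:**
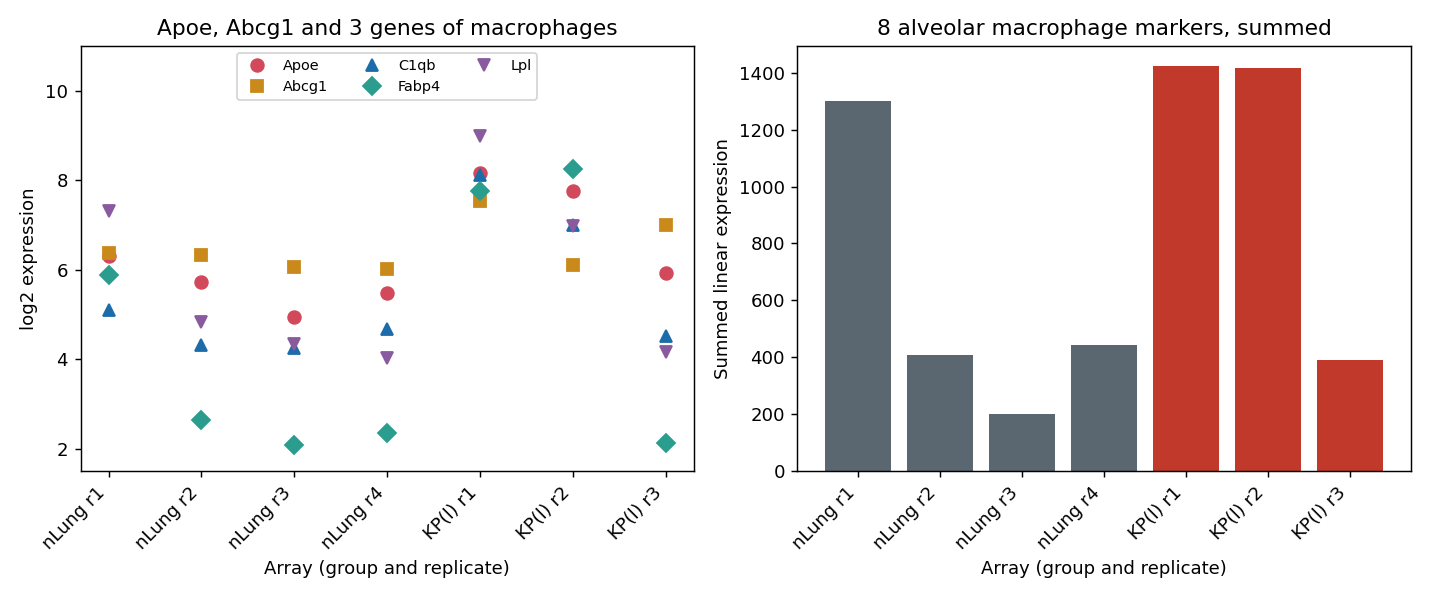
Log2 expression of Apoe, Abcg1 and macrophage genes in each of the 7 arrays, beside the summed linear expression of 8 alveolar macrophage markers as bars that start at 0. The sum is 1303 in nLung replicate 1 and 1423 and 1418 in KP(l) replicates 1 and 2, and 200 to 444 in the other 4 arrays; levels of different genes are not to be compared with each other.

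Abca1, the transporter that loads cholesterol onto lipid-poor apolipoproteins, had log2 values of 3.03, 3.04, 2.99 and 2.78 in nLung and of 3.66, 3.14 and 3.06 in KP(l). The KP(l) arrays were the highest 3 of the 7, with KP(l) replicate 3 close to nLung replicates 1 and 2. Abca1 differed by 0.33 on the log2 scale (standard error 0.17, 95% interval -0.07 to 0.72, adjusted p = 0.912 from limma), with 0.37 in the first set and 0.18 in the second set. An exact two-sided permutation test gave p = 0.0286 for Abca1, the smallest it can give, without adjustment for the other genes. Its mean lay below 3.54, the median of all probe sets, and without KP(l) replicate 1 the log2 fold change was 0.14.

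Abcg1, the transporter that passes cholesterol to larger lipoproteins, was looked at array by array after its values were seen. It had log2 values of 6.37, 6.32, 6.06 and 6.004 in nLung and of 7.54, 6.10 and 6.996 in KP(l). KP(l) replicates 1 and 3 lay above all nLung arrays and KP(l) replicate 2 lay among them. Its mean differed by 0.69 on the log2 scale (standard error 0.32), with 0.47 in the first set and 0.96 in the second set. Abcg1 was high in KP(l) replicate 3, where the alveolar macrophage markers were low, and not in KP(l) replicate 2, where they were high. Abcg1 stood at 0.87, in 1 KP(l) array against 3 nLung arrays, with the 3 arrays highest in these markers left out. That choice was made after seeing the data, and the part of macrophages in the result was not tested. The receptors themselves had log2 fold changes of 0.01 for Nr1h2, which encodes LXRβ, and -0.02 for Nr1h3, which encodes LXRα, with 95% intervals of -0.72 to 0.74 and -0.61 to 0.56. The mean of Nr1h3 lay below 3.54, the median of all probe sets. Mylip, whose product marks lipoprotein receptors for breakdown, stood at 0.01. The 6 genes had a median of 0.17, with 5 above and 1 below 0, and the 1 at an unadjusted p under 0.05 was Apoe.

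**Figure D5:**
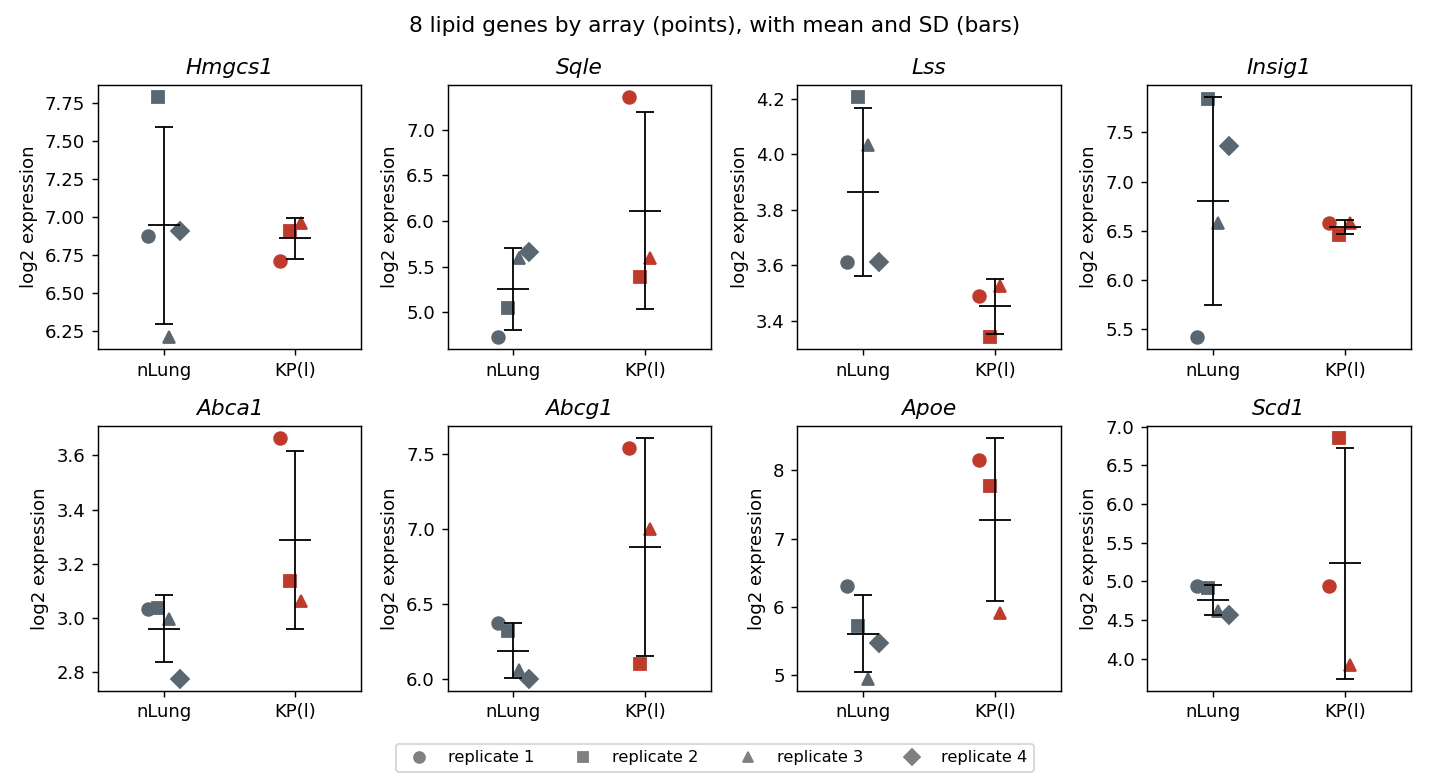
Log2 expression in each array for 8 members described array by array, with nLung (4 points) and KP(l) (3 points) side by side and the mean ± SD of each group as bars. The groups part narrowly in Abca1 and Lss. In Apoe, Abcg1 and Sqle 1 or 2 of the 3 KP(l) points lie above all nLung points.

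Genes of fatty acid synthesis and storage followed no common direction. Fasn, the fatty acid synthase, had log2 values of 5.94, 5.75, 6.51 and 5.88 in nLung and of 5.53, 5.31 and 6.41 in KP(l). KP(l) replicates 1 and 2 lay below all nLung arrays, and KP(l) replicate 3 lay near the highest. The log2 fold change was -0.27 (standard error 0.31, 95% interval -1.003 to 0.47, adjusted p = 0.922 from limma), with -0.43 in the first set and 0.22 in the second set. Scd1, a desaturase that makes monounsaturated fatty acids, was named after its values were seen. It stood at 4.94, 4.92, 4.62 and 4.57 in nLung and at 4.94, 6.85 and 3.92 in KP(l), so that the highest and the lowest of the 7 arrays were both KP(l). Its log2 fold change was 0.47 (standard error 0.64), or 0.97 in the first set and -0.68 in the second set, and -0.33 without KP(l) replicate 2. The related desaturase Scd2 stood at 0.38 and Lpcat3, which puts polyunsaturated chains into phospholipids, at 0.23. Plin2, which coats lipid droplets, stood at -0.20, with KP(l) arrays of 8.47 to 9.07 against 8.99 to 9.09 in nLung, and its 95% interval of -0.56 to 0.16 held no change of 2-fold. Soat1, which makes cholesterol esters for storage, stood at 0.24. The 6 genes had a median of 0.24, with 4 above and 2 below 0.

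Beyond the members, 65 further lipid genes were measured, none of them called. At an unadjusted p under 0.05 there were 6, or 9.23% against 4.86% of all probe sets, 2 higher and 4 lower in KP(l), and there were 3 without nLung replicate 1. Among 17 other sterol genes 1 was higher and 2 were lower. Tm7sf2, a sterol reductase, was higher by 0.45 on the log2 scale (standard error 0.14) and Stard3, which moves cholesterol at endosomes, differed by -0.90 (standard error 0.29), with groups that did not overlap in either. Stard3 stood at 6.001, 6.78, 6.04 and 6.36 in nLung and at 4.80, 5.67 and 5.70 in KP(l). Among 12 other genes of fatty acid synthesis the 1 below that p was Fads1, a desaturase of polyunsaturated fatty acids, at -1.32 (standard error 0.45), with -1.22 and -1.45 in the 2 sets, and the elongase Elovl5 stood at 0.51.

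Among 9 nuclear receptors and partners of LXR, Ppard, a receptor for fatty acids, was at 0.70 (standard error 0.24) with groups that did not overlap, though 1.06 in the first set and 0.18 in the second set. Rxrb, a partner with which LXR binds DNA, was at -0.48 (standard error 0.16). Of 11 droplet and lipolysis genes 0 passed that p, and the 2 nearest to it were Dgat2, which makes triglyceride, at -1.09 and G0s2, which inhibits a lipase, at 0.66. Of 16 uptake and transport genes 0 passed, with Abca7 at -0.34 and Arl4c at -0.33 the nearest. In this list Fabp4 and Lpl, both abundant in alveolar macrophages, had log2 values of 5.88 and 7.31 in nLung replicate 1, of 7.76 and 8.99 in KP(l) replicate 1 and of 8.24 and 6.98 in KP(l) replicate 2. In the other 4 arrays Fabp4 was at 2.08 to 2.64 and Lpl at 4.03 to 4.83. All 10 genes named from these lists, other than Fabp4 and Lpl, had an adjusted p of 0.912 from limma.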

How the data were processed

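RNA of cDC1 sorted from pooled lungs was hybridised to 7 arrays. The authors deposited log2 values made by RMA, which corrects background, equalises array quantiles and summarises probes by median polish, with a BrainArray definition of 1 probe set per Entrez gene. RMA makes arrays alike in distribution, and many probe sets hold values shared by several arrays. The labels name NuGEN amplification and the study's methods an Affymetrix 3'IVT protocol. Nothing was filtered or subtracted. Summed linear expression adds the values taken back from log2. The number of arrays limits the precision.

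KP(l) and nLung were compared by lmFit and eBayes of limma 3.58.1, run in R 4.3.3, over all 25428 probe sets. SAM, the study's test, was written anew with all 35 arrangements of the labels as an alternative, beside an intensity trend, array weights, other normalization, a filter on low means, other fold thresholds, a block and leaving out arrays. Members, lists and tests were chosen with earlier results of these data known. Array values are given for members with an unadjusted p under 0.05, a 2-fold change or groups without overlap, and for the first listed member of a role with none. Of each further list, the 2 genes with the smallest p are named. Array values of Stard3 were added after they were seen. Sqle, Scd1, Abcg1, C1qb, Fabp4 and Lpl, and any other gene outside this rule, were named after their values were seen. Figures were drawn with matplotlib 3.10.9.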

Additional observations from a re-analysis of the deposited data

Results flagged for a closer look

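In 4 of 43 genes examined, 1 nLung array stood apart from the other 3, by a gap to the nearest array divided by the range of the group. The ratio was 1 for Ebp and 0.931 for Dhcr7, where nLung replicate 1 was high, 0.844 for Abca1, where nLung replicate 4 was low at 2.78, and 0.841 for Elovl5, where nLung replicate 1 was low at 8.97. About 5% of groups of 4 would be expected to pass by chance, and 18.4% of all probe sets on these arrays did, where shared values are common. In Ebp the other 3 nLung arrays held 1 shared value of 5.36.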

How the results depend on the processing

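Over 14 results 207 values were recomputed. Of these, 185 stayed within set limits. The limits were the same sign and side of the threshold for a fold change and a factor of 1.5 for a count. For the median of the members the limit was 1 SD of the array medians, whatever the sign. No member came near the threshold of adjusted p, so the limit for a fold change rested on its sign alone. A change in size did not count, as for Sqle, at 0.86 with all arrays and 0.24 without KP(l) replicate 1. The count of called members was 0 under every alternative run, the rewritten SAM included, which called 0 probe sets. The study's own SAM did report differentially expressed transcripts, so the rewritten version did not return the study's result. From limma the lowest adjusted p of a member was between 0.293 and 1. The 1 member at an unadjusted p under 0.05 became 2 with an intensity trend, array weights, a further quantile normalization or centring on the median, 3 without the 3 arrays highest in alveolar macrophage markers (chosen after seeing the data), and 0 to 3 when each array was left out. Members without overlap, 2, became 1 among the 30 members above the median mean, since Abca1 lies below it, and 3 with centring; they were 2 to 8 when each array was left out (4 without KP(l) replicate 2, 5 without nLung replicate 1, and 8 when KP(l) replicate 3 was omitted), and fewer arrays overlap less often by construction. The median of the members, -0.05, was 0.039 with array weights and -0.086 to 0.0034 when each array was left out, above 0 without KP(l) replicate 3. Further lipid genes at an unadjusted p under 0.05, 6, were 3 to 8 when each array was left out.

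Of the 9 members for which each alternative was run, 4 changed sign, and the cause was not tested; over all 33 members, 14 did so on leaving out 1 array. Hmgcs1 was 0.12 with array weights and ran from -0.33 to 0.20, the latter without nLung replicate 2, and Insig1 was 0.084 without nLung replicate 2, the highest of its values from -0.72 when each array was left out. Scd1 was -0.33 without KP(l) replicate 2, with values up to 1.13 when each array was left out, and -0.79 without the 3 arrays highest in alveolar macrophage markers, where Fasn was 0.37. There 1 KP(l) array is left and is assumed to vary like the others. The groups share replicate numbers, but deviations from the group means correlated at 0.08, 0.02 and 0.19 for numbers 1 to 3 and 1 of 3 KP(l) arrays correlated best with its own number, so the numbers were not taken as pairs. With the replicate block 2 members and 8 further lipid genes reached an unadjusted p under 0.05, and 0 were called.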

Other observations

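In 18 of the 33 members at least 2 of the 7 arrays held the same deposited value, as in 55.9% of all probe sets. Examples are Ebp, at 5.36 in nLung replicates 2 to 4, and Hsd17b7, at 2.82 in nLung replicates 2 and 3 and KP(l) replicate 3.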
